A study of Mus musculus with 25 samples.

Results

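The 10 genes described here are parts of the canonical Wnt pathway known from brain endothelium: Fzd4, Lrp6, Tspan12, Adgra2, Reck, Ctnnb1, Lef1, Axin2, Apcdd1 and Foxq1. The rule lists them by name and sets no threshold on measured values, but the list was drawn up with earlier results of these data known. Each had 1 row among the 45706 genes of the hypothalamus table and the 44674 genes of the cell culture table. In the mice, RNA was sequenced from whole hypothalamic lysate (INPUT) and from ribosomes pulled down by a GFP tag (IP), after 3 days on either a high-fat diet (HFD) or the control diet (CD). In culture, the mouse brain endothelial line cEND received DMSO as vehicle or WZB117, which blocks the glucose transporter encoded by Slc2a1, at 0.5 or 10 µM. The study asked how brain vascular endothelium changes its transcripts on this diet and when glucose transport is inhibited.

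All mice had the genotype Slco1c1Cre+/-;ROSA26lSlL10aGFP+/-, controls included: Slco1c1 regulatory sequence drives a Cre that tamoxifen switches on, and Cre in turn permits expression of ribosomal protein L10a fused to GFP. They were 12 weeks old and had been given tamoxifen 3 weeks before the diets began. A library came from 4 pooled mice, 2 male and 2 female, and each of CD_INPUT, CD_IP, HFD_INPUT and HFD_IP had 4 libraries. DMSO, WZB117 0.5 µM and WZB117 10 µM each had 3 libraries, 1 at each of passages 12, 14 and 18. The 9 cEND libraries therefore come from 1 line, and no p-value from them measures spread between animals or lines. Comparisons by treatment alone rest on the spread between passages, and comparisons within passage on what is left after passage. Comparisons of passages take the differently treated libraries of 1 passage as replicates; these deviated together, so such p-values do not measure the spread between separate cultures. How long WZB117 was applied is not given in the sources used here.

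In canonical Wnt signalling, a Wnt ligand or norrin binds a Frizzled receptor and its co-receptor Lrp5 or Lrp6, the Axin and Apc destruction complex is held back, and beta-catenin enters the nucleus to act with Lef1 or a Tcf factor. In the brain, Wnt7a and Wnt7b made by neural cells act on endothelium through Frizzled, Reck and Adgra2 (also called Gpr124), while norrin acts through Fzd4 and Tspan12. The pathway is known for driving vessel ingrowth into the central nervous system and for keeping up blood-brain barrier genes.

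In GRCm38, the genes for the receptor side lie at chr7:89404355-89413134 (Fzd4), chr6:134446476-134566965 (Lrp6), chr6:21771395-21852515 (Tspan12), chr8:27085583-27123436 (Adgra2) and chr4:43875530-43944806 (Reck). Of the nuclear side and the targets, genes lie at chr9:120929216-120960507 (Ctnnb1), chr3:131110471-131224356 (Lef1), chr11:108920349-108950783 (Axin2) and chr13:31556134-31560976 (Foxq1).

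Promoter sequence from RefSeq (GRCm38.p6) was at hand for 6 of the 10, in 10 windows; Apcdd1, Foxq1, Adgra2 and Lrp6 had none. Upstream sequence is shown for Axin2 and Lef1, both textbook transcriptional targets of the pathway, and for Reck, a membrane part of the pathway. Capitals mark CTTTG or its reverse complement CAAAG, the core of the site bound by Lef1 and Tcf factors, in the 250 bases before an annotated start, all 3 on the plus strand.
Axin2, chr11:108920099-108920348: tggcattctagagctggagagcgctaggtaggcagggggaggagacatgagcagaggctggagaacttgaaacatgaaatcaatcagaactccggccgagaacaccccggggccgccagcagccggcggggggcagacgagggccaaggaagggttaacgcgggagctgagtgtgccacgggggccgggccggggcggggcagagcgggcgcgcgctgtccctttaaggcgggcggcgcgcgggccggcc
Lef1, internal start, chr3:131156044-131156293: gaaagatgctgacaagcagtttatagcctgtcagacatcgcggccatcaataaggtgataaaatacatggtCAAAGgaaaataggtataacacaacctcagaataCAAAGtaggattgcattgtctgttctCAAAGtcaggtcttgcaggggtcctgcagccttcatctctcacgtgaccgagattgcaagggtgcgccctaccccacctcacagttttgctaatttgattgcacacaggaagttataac
Reck, chr4:43875280-43875529: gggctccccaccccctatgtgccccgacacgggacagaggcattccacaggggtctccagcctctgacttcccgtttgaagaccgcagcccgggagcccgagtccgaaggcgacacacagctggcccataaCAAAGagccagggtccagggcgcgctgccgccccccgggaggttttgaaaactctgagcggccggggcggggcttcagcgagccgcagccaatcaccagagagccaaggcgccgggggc
The Axin2 window held no CTTTG on either strand. The Reck window held 1, and the window before the internal Lef1 start held 3, the most of the 4 Lef1 windows, of which the others held 1, 2 and 1. Among the remaining windows, Tspan12 held 1, Fzd4 0 and both Ctnnb1 windows 0. On both strands, CTTTG was found in 48.6% of the 32851 promoter windows of this length in the table. Such a match is a description of letters, not a binding site.

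Depth ranged from 27.9 M to 42.8 M assigned counts in the hypothalamus libraries and from 27.3 M to 41.3 M in the cEND libraries. The INPUT and IP libraries differed in more than cell type: ribosomal RNA and mitochondrial genes took 32.7% to 39.4% of INPUT counts and 7.81% to 10.5% of IP counts. The pull-down raised Slco1c1, the gene whose promoter drives Cre, from 10.6 ± 1.8 to 92.6 ± 14.5 CPM (SD, n = 8), where CPM is the count per 1e6 counts of a library, after TMM scaling. It did not hold endothelial RNA alone. The summed level of 12 endothelial markers was 19.5 to 27.6 CPM in INPUT and 90.9 to 132 CPM in IP, while 10 astrocyte markers summed to 5768 to 7775 CPM in INPUT and 44865 to 57014 CPM in IP. Both lists were higher in IP for all their markers (12 of 12 and 10 of 10), choroid plexus markers for 4 of 5 tested, and all 8 neuron markers were lower. Whether a difference in a Wnt gene belongs to endothelial cells or to astrocytes in the pull-down was not tested. In these bulk libraries, fewer cells of a type and less RNA per cell cannot be told apart. The cEND libraries had the endothelial markers at 5803 to 8074 CPM summed, the astrocyte list at 152 to 185 CPM, and Slco1c1 at 0 counts in all 9.

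Across IP and INPUT, 8 of the 10 genes were higher on tagged ribosomes and none was lower, by the edgeR quasi-likelihood test with Benjamini-Hochberg adjustment over all 17592 genes tested (threshold 0.05). This contrast changed most of the transcriptome: 83.7% of tested genes passed, 41.6% higher and 42.1% lower. The median log2 fold change of the 10 genes was 1.02, against -0.02 over all genes tested. For 6 of the 10, every IP library lay above every INPUT library; 59.9% of all tested genes had groups that did not overlap. The plot of levels by library shows the same 6 genes with separate point clouds.

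**Figure D1:**
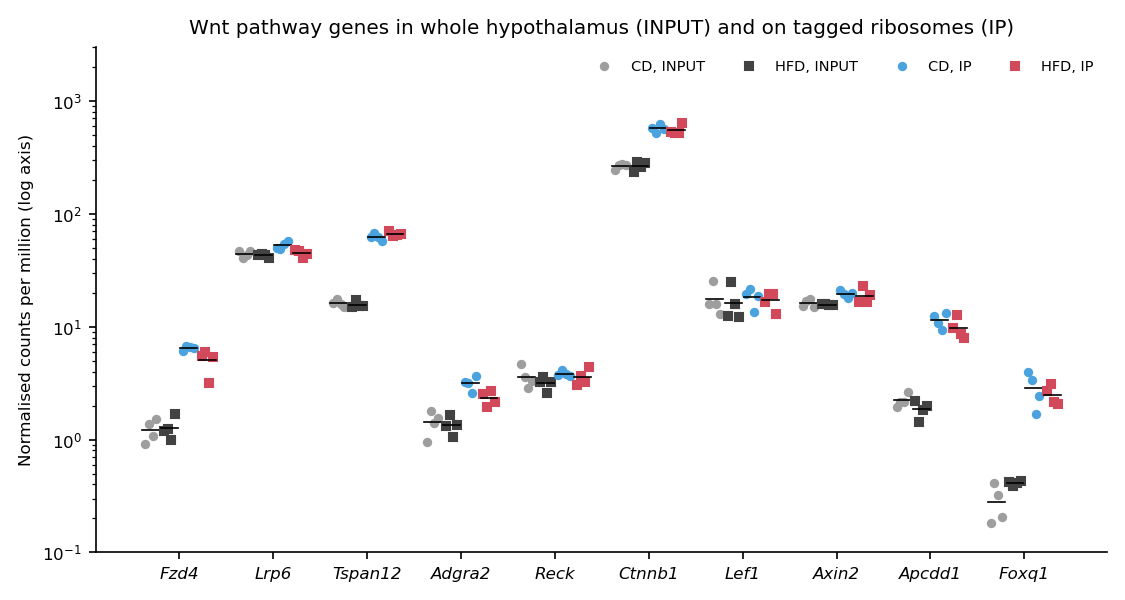
Normalised CPM (log axis) of the 10 Wnt pathway genes in the 16 hypothalamus libraries. Points are libraries, 4 per group, and short lines are group means; Fzd4, Tspan12, Adgra2, Ctnnb1, Apcdd1 and Foxq1 lie higher in every IP library than in any INPUT library, while Lef1 and Reck overlap throughout.

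Of the norrin receptor parts, Fzd4, which binds norrin and several Wnts, had a lowest, median and highest level of 0.909, 1.2 and 1.68 CPM in the 8 INPUT libraries and 3.18, 6.03 and 6.7 CPM in the 8 IP libraries. The groups did not overlap, and the log2 fold change was 2.18 ± 0.14 (SE, adjusted p = 2.11e-13). Tspan12, the tetraspanin that helps Fzd4 respond to norrin, went from 14.9, 15.5 and 17.7 CPM to 57.8, 63.7 and 70.8 CPM. Its groups did not overlap either, and its log2 fold change was 2.02 ± 0.05 (adjusted p = 8.39e-22). Lrp6, the co-receptor shared by Wnt ligands, stood at 40.4, 43.5 and 46.6 CPM in INPUT and 40.2, 47.9 and 57.4 CPM in IP. These ranges overlapped, and the difference of 0.15 ± 0.05 on the log2 scale, though past the threshold (adjusted p = 0.00558), amounted to 1.11-fold.

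Of the pair that lets endothelium read Wnt7a and Wnt7b, Adgra2 passed the threshold and Reck did not, and the difference between them was not tested. Adgra2, an adhesion G protein-coupled receptor, had 0.946, 1.37 and 1.79 CPM in INPUT and 1.96, 2.62 and 3.65 CPM in IP, a log2 fold change of 0.97 ± 0.14 (adjusted p = 6.63e-07) without overlap. Reck, the membrane-anchored protein that binds Wnt7 and works with Adgra2, had 2.56, 3.3 and 4.62 CPM in INPUT and 3.07, 3.67 and 4.41 CPM in IP. Its log2 difference of 0.14 ± 0.11 (95% interval -0.07 to 0.36) missed the threshold (adjusted p = 0.233).

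Ctnnb1, which encodes beta-catenin, was the most abundant of the 10 in both fractions. It had 235, 273 and 287 CPM in INPUT and 515, 547 and 632 CPM in IP, a log2 fold change of 1.07 ± 0.05 (adjusted p = 1.78e-15) with no overlap. Lef1, the DNA-binding partner of beta-catenin, had 12.2, 15.8 and 25.3 CPM in INPUT and 13, 19 and 21.7 CPM in IP. The ranges overlapped, and the log2 difference of 0.07 ± 0.18 (interval -0.29 to 0.43) missed the threshold (adjusted p = 0.737).

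Among the INPUT libraries, Lef1 was highest in those numbered 2. INPUT replicate 2 had 25.3 CPM on CD and 24.7 CPM on HFD, while the other 6 INPUT libraries had 12.2 to 15.9 CPM. Tcf7l2, another Tcf family factor, was likewise at 194 and 222 CPM in these libraries and at 117 to 153 CPM in the other 6. A set of 6 genes known from thalamic neurons (Prkcd, Tnnt1, Ramp3, Gbx2, Synpo2 and Rgs16, picked after these values were seen) summed to 236 and 238 CPM there, against 98.3 to 154 CPM in the other INPUT libraries. In IP, the libraries numbered 2 had sums of 58.5 CPM on CD and 59 CPM on HFD, against 38.4 to 54.6 CPM in the other IP libraries. Lef1 was at 21.7 and 19.3 CPM there, and at 13 to 19.6 CPM in the other IP libraries, so on HFD it was not set apart. The part of these 6 genes in the Lef1 level was not tested. An alternative added after the data were seen left out both INPUT libraries and kept all IP libraries, which gave Lef1 a log2 difference of 0.32. The libraries left out had the highest Lef1 of all INPUT libraries, so this rise was built in and is no test of Lef1.

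The 3 known targets differed widely in how far the pull-down raised them. Axin2, a feedback inhibitor switched on by beta-catenin in many tissues, had 15, 15.7 and 17.4 CPM in INPUT and 16.5, 19.2 and 22.8 CPM in IP. The groups overlapped slightly, and the log2 fold change was 0.26 ± 0.06 (adjusted p = 0.000472), 1.2-fold. Apcdd1, a membrane-bound Wnt inhibitor and barrier-linked target, rose from 1.42, 2.06 and 2.65 CPM to 7.91, 10.2 and 13.3 CPM, a log2 fold change of 2.36 ± 0.11 (adjusted p = 5.47e-16). Foxq1, a forkhead transcription factor of brain endothelium, went from 0.182, 0.398 and 0.426 CPM to 1.69, 2.55 and 3.97 CPM. Its log2 fold change of 2.96 ± 0.20 (adjusted p = 6.99e-13) was the highest of the 10, on INPUT counts of only 5 to 17 reads per library. Apcdd1 and Foxq1 did not overlap between fractions.

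Some of these counts may be shared with other genes. Lef1, Ctnnb1 and Foxq1 had fractional counts in all 16 hypothalamus libraries, Axin2 in 7 and Tspan12 in 4. Foxq1 overlaps the gene A530084C06Rik on the other strand, Ctnnb1 overlaps Ulk4, and Lef1, Axin2 and Tspan12 each overlap an antisense transcript (Gm43352, Gm11670 and Gm30270). In the hypothalamus, overlap and fractional counts did not go together throughout, since Adgra2 overlaps Brf2 and Reck overlaps Gm27265 and both had whole counts in all 16 libraries. In cEND, counts were fractional for Lef1 in all 9 libraries, Adgra2 in 4, Tspan12 in 3, Ctnnb1 in 2, Reck in 2 and Lrp6 in 1. Whether the counting used strand is not given in the sources used here, so reads of a gene and its partner on the other strand cannot be told apart.

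Per kilobase of merged exons, which allows genes to be set side by side, beta-catenin led the IP libraries at 108 ± 8.99 CPM per kb (SD, n = 8), followed by Tspan12 at 19.5 ± 1.22. Lrp6 at 3.55 ± 0.394 and Axin2 at 3.47 ± 0.387 CPM per kb did not differ beyond their spread. Lef1 came next at 2.01 ± 0.351 CPM per kb. Fzd4 (0.855 ± 0.17), Apcdd1 (0.819 ± 0.154), Reck (0.775 ± 0.0905), Foxq1 (0.552 ± 0.156) and Adgra2 (0.475 ± 0.0986 CPM per kb) formed a low tier in which neighbours overlapped. In INPUT the order of the upper genes was much the same, with Ctnnb1 at 51.3 ± 3.67 and Tspan12 at 4.79 ± 0.321 CPM per kb, while Foxq1 was lowest at 0.0714 ± 0.0204 CPM per kb.

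The wider pathway was read from 113 further genes in 8 lists, of which 98 were tested in this contrast: 58 were higher and 29 lower in IP, 88.8% in all beside the 83.7% of the background. Receptors and co-receptors leaned to the ribosome fraction, with 13 of 17 higher and 2 lower (list median 1.26). The 4 with the smallest p were the Wnt receptor Ryk (log2 fold change 1.75 ± 0.07), the co-receptor Lrp5 (2.03 ± 0.10), Fzd2 (2.82 ± 0.13) and Fzd6 (1.60 ± 0.10), all higher with adjusted p from 3.61e-18 to 2.89e-13. In the list of brain endothelial genes that depend on Wnt signalling, whether raised or lowered by it, 11 of 12 were higher and none lower (median 2.05). Among them were the amino acid carrier Slc7a5 (1.72 ± 0.07), the nuclear receptor Ppard (1.18 ± 0.05), the glucose transporter Slc2a1 (1.98 ± 0.07) and the forkhead factor Foxf2 (2.84 ± 0.17). The 11 also include Slco1c1, whose promoter drives Cre, so its rise was built in by the design. Cldn5, another of the 11, is on the endothelial marker list as well.

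Ligands were divided, with 6 of 15 higher and 8 lower. Wnt7b rose from 5.76 ± 0.685 to 37.6 ± 3.76 CPM (SD, n = 8, log2 fold change 2.71 ± 0.07) and Wnt7a from 3.43 ± 0.445 to 17.5 ± 2.23 CPM (2.35 ± 0.09). Ndp, which encodes norrin, went from 4.02 ± 0.646 to 17.2 ± 1.45 CPM (2.10 ± 0.08), whereas the R-spondin Rspo1 fell by 1.22 ± 0.08. These ligands were thus higher in the same fraction as Fzd4, Tspan12 and Adgra2, while Reck missed the threshold and Lrp6 rose only slightly. Astrocyte markers were higher in that fraction too. Both secretion genes, Wls (1.04 ± 0.08) and Porcn (0.80 ± 0.10), were higher.

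Of the nuclear effectors, 9 of 12 were higher and 1 lower (median 0.37). Tcf7l1 rose from 6.63 ± 0.537 to 43.7 ± 4.55 CPM (2.72 ± 0.07) and Tcf7 from 1.45 ± 0.347 to 5.33 ± 1.07 CPM (1.89 ± 0.13), and the co-factors Tle3 (1.05 ± 0.06) and Bcl9l (0.76 ± 0.05) were higher as well. Of the 4 Lef1 and Tcf family genes, Lef1 and Tcf7l2 missed the threshold; Tcf7l2 had 151 ± 37.9 CPM in INPUT and 140 ± 13.2 CPM in IP (log2 difference -0.11 ± 0.14, adjusted p = 0.456). The destruction complex list was split evenly, 7 higher and 7 lower of 14, with Dvl3 (1.43 ± 0.05), Fbxw11 (0.69 ± 0.03) and Apc (0.53 ± 0.05) higher and Btrc lower by -0.55 ± 0.05. Inhibitors had 7 higher and 8 lower of 18. Among these, the secreted decoy Sfrp5 (3.28 ± 0.11), the receptor-degrading ligase Znrf3 (1.59 ± 0.07), Kremen1 (1.54 ± 0.09) and Dkk3 (0.83 ± 0.08) were higher. General Wnt targets had 6 higher and 5 lower of 13, with Tnfrsf19 (2.54 ± 0.06) and Sox4 (1.35 ± 0.07) higher and Prickle1 lower by -1.25 ± 0.06.

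**Figure D2:**
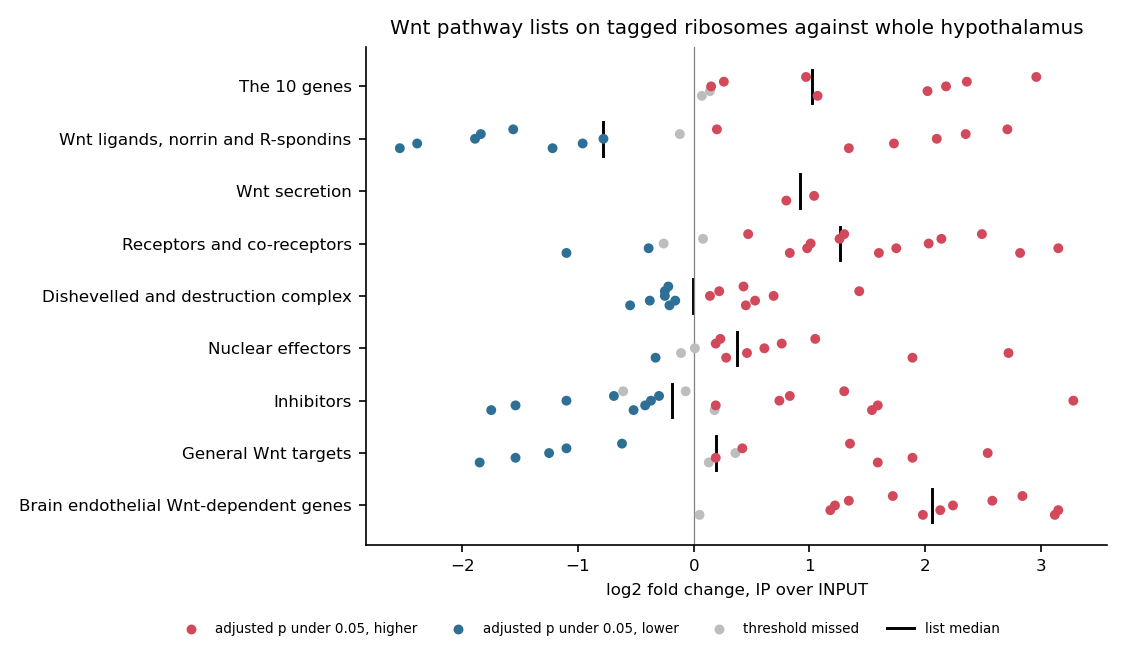
log2 fold change of IP over INPUT for the 10 genes and 8 lists of further Wnt pathway genes, 1 point per tested gene, coloured by the edgeR test, with the list median as a black bar. Receptors and brain endothelial Wnt-dependent genes lie mostly to the right (medians 1.26 and 2.05), while ligands and the destruction complex fall on both sides.

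The diet comparison asked whether these genes changed within 3 days of HFD. On tagged ribosomes none of the 10 passed edgeR's test, where 0.0883% of 15858 tested genes did. DESeq2 also called 0 of the 10. Of the 10, 3 had an unadjusted p under 0.05, as did 11.5% of all tested genes, and 9 of the 10 had lower fitted levels on HFD, with a median log2 difference of -0.15 against 0.00 over all genes.

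The 3 genes with the smallest p, none of them called, were Lrp6, Adgra2 and Fzd4. Lrp6 had 49.5, 48.3, 54.3 and 57.4 CPM in the CD_IP libraries and 47.6, 46.8, 40.2 and 44.4 CPM in the HFD_IP libraries. Every HFD library lay below every CD library, with a log2 difference of -0.21 ± 0.08 (adjusted p = 0.279). Adgra2 had 3.24, 3.16, 2.58 and 3.65 CPM on CD and 2.53, 1.96, 2.67 and 2.17 CPM on HFD. HFD replicate 3 lay above the lowest CD library, and the log2 difference was -0.42 ± 0.17 (adjusted p = 0.33).

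Fzd4 had 6.05, 6.7, 6.58 and 6.52 CPM on CD and 5.54, 6.01, 3.18 and 5.4 CPM on HFD, a log2 difference of -0.35 ± 0.16 (adjusted p = 0.408). The groups did not overlap, and HFD replicate 3 lay far below the others. Separate diet groups were found for 2 of the 10 genes and for 6.23% of all tested genes. The remaining 7 had log2 differences from -0.22 (Apcdd1) to 0.10 (Tspan12), each with a 95% interval that held 0. The summed endothelial markers ran from 90.9 to 132 CPM in CD_IP and from 100 to 119 CPM in HFD_IP. The summed astrocyte markers ran from 48120 to 57014 CPM in CD_IP and from 44865 to 49353 CPM in HFD_IP, and their part in the Wnt values was not tested.

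In whole hypothalamus, edgeR called 0 of the 10 genes, with 0 under an unadjusted p of 0.05 (7.45% of all genes) and 0 by DESeq2, where 0.0355% of 16879 genes passed. The values with the smallest p among them were those of Apcdd1, at -0.27 ± 0.18, and of Foxq1, at 0.54 ± 0.37 (SE) on the log2 scale. The difference between the diet effect in IP and that in INPUT was called for 0 of the 10 and for 0% of 17592 genes by edgeR, with 755 genes under an unadjusted p of 0.05 and 4 genes by DESeq2. For Fzd4 that difference was -0.42 ± 0.28, and for Foxq1 it was -0.75 ± 0.42. The plot of diet differences shows intervals of both fractions that overlap for each of the 10.

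**Figure D3:**
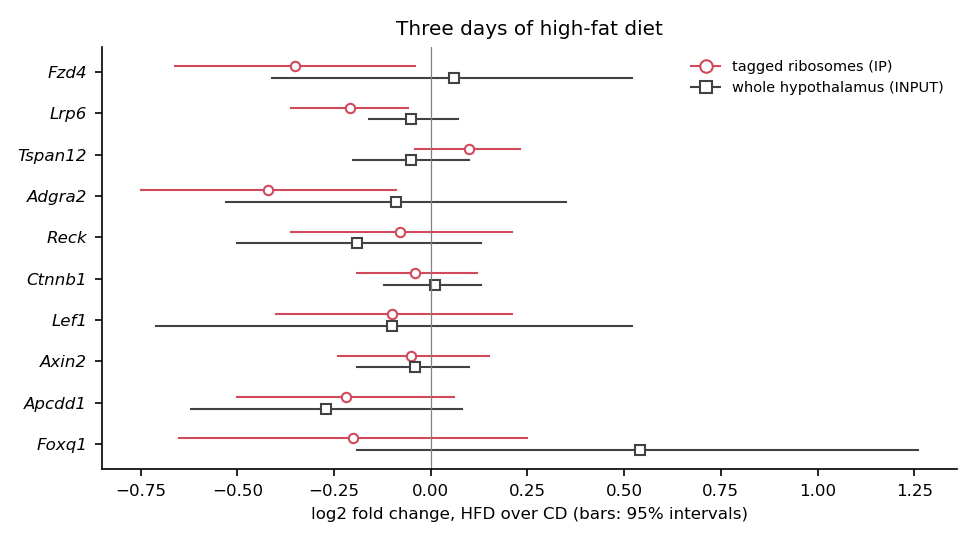
log2 fold change of HFD over CD for the 10 genes on tagged ribosomes (circles) and in whole hypothalamus (squares), with 95% intervals as bars, n = 4 libraries per group. All symbols are open because no gene reached an adjusted p of 0.05; Lrp6, Adgra2 and Fzd4 on ribosomes have bars left of 0.

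Of the 113 further pathway genes, 94 were tested in IP and 98 in INPUT, and edgeR called 0 in each. In IP 16 of the 94 had an unadjusted p under 0.05, beside 11.5% of all genes, and DESeq2 called 4 (Ccnd1, Cd44, Sfrp5 and Slc2a1) among the 200 it called of 15858 genes. In INPUT 9 of the 98 had an unadjusted p under 0.05, beside 7.45% of all genes, and DESeq2 called 0 of them among its 52 calls. With the replicate number as a block, edgeR called 1 in IP, Cd44. In IP, the receptor Fzd2 (-0.46 ± 0.15, adjusted p = 0.236) and the brain endothelial genes Slc2a1 (-0.32 ± 0.09, adjusted p = 0.161) and Abcb1a (-0.45 ± 0.15, adjusted p = 0.237) had the smallest p of their lists. So did the inhibitors Sfrp5 (-0.41 ± 0.10, adjusted p = 0.134) and Znrf3 (-0.31 ± 0.09, adjusted p = 0.192), and the general targets Ccnd1 (0.70 ± 0.15, adjusted p = 0.129) and Cd44 (0.60 ± 0.16, adjusted p = 0.165).

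Over the 8 IP libraries, the genes whose log2 levels followed Axin2 most closely, among 13030 genes, were Tor4a (Pearson r 0.94), Pinx1 (0.92), Gm4202 (0.92), Kcng4 (0.91) and Cnst (0.91). These libraries share tissue, pull-down and pools, and the values are descriptions. The same ranking was not made in cEND cells, where Axin2 was too low to be tested.

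Of the 10 genes, beta-catenin and those of the receptor side were the highest in cEND cells. Per kilobase, Ctnnb1 stood at 366 ± 77.2 CPM (SD over the 9 libraries of all treatments), Adgra2 at 67 ± 9.27, Tspan12 at 12.8 ± 2.72, Fzd4 at 9.77 ± 1.23, Lrp6 at 6.17 ± 0.472 and Reck at 1.62 ± 0.255 CPM per kb. Tspan12 and Fzd4 overlapped in range, from 9.46 to 16.9 and from 7.86 to 11.4 CPM per kb. Adgra2, among the lowest of the 10 in the pull-down, was here the second in the order, a difference that was not tested because the tables were normalised separately.

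Among the 10 genes, the nuclear partner and the targets were near the floor. Lef1 had 5 to 41 counts per library, Axin2 4 to 14 counts and Apcdd1 0 to 46 counts. Foxq1 had 0 counts in 8 libraries and 2 counts in WZB117 10 µM at passage 12. Axin2 and Foxq1 were removed by edgeR's filter on low counts, so 8 of the 10 genes were tested in cEND. Of the wider lists, the filter kept 14 of 14 destruction complex genes, 11 of 12 nuclear effectors, 11 of 15 general targets and 12 of 17 receptors. Of the ligands, Wnt7b was at 0.271 ± 0.133 CPM and Wnt7a at 0.118 ± 0.093 CPM over 9 libraries, while the co-receptor Lrp5 stood at 250 ± 52 CPM. The filter kept 5 of the 24 genes in the ligand list. Among Tcf factors, Tcf7l2 had 5.07 ± 0.907 CPM and Tcf7l1 had 2.24 ± 0.447 CPM.

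**Figure D4:**
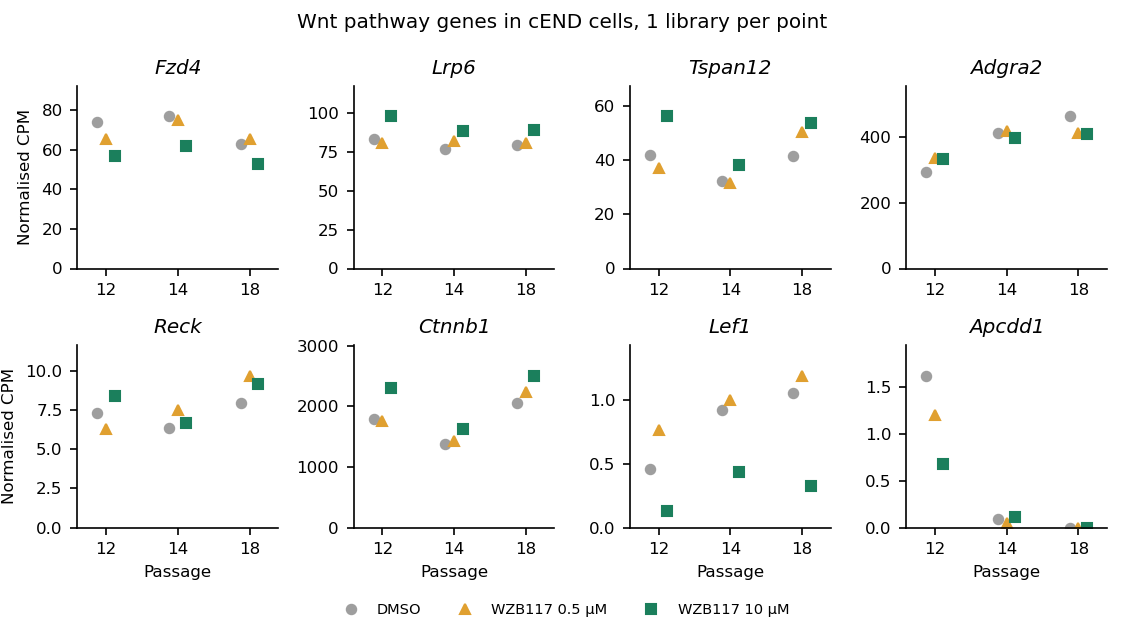
Normalised CPM of the 8 tested genes in cEND cells by passage, 1 library per point, with DMSO as circles, WZB117 0.5 µM as triangles and WZB117 10 µM as squares. Apcdd1 falls from 0.682 to 1.62 CPM at passage 12 to 0 at passage 18, and the squares lie lowest for Lef1 and Fzd4 and highest for Ctnnb1, Tspan12 and Lrp6 at each passage.

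Passage was compared with treatment kept as a term. Apcdd1 was the gene that moved most. It had 46, 36 and 27 counts at passage 12 (DMSO, 0.5 and 10 µM), 3, 2 and 4 counts at passage 14, and 0 counts in all 3 libraries at passage 18. Pooled over the 3 libraries, passage 12 was 13.4 times passage 14 (exact Poisson interval 6.79 to 30, covering counting error only). Against a floor of 3 counts over the group, it was at least 41-fold higher than passage 18. edgeR called it lower at passage 14 than at 12 (adjusted p = 3.22e-05), at 18 than at 12 (adjusted p = 2.5e-07) and at 18 than at 14 (adjusted p = 0.013). The last of these calls was lost without DMSO replicate 18 (adjusted p = 0.0619).

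Between passages 12 and 14, 4 of the 8 tested genes passed, 3 lower and 1 higher, beside 21.6% of all 15466 genes. Besides Apcdd1, Tspan12 (-0.40 ± 0.08, adjusted p = 0.00137) and Ctnnb1 (-0.40 ± 0.06, adjusted p = 1.09e-05) fell, and Adgra2 rose by 0.35 ± 0.07 (adjusted p = 0.000401). Adgra2 went from 294, 337 and 334 CPM (DMSO, 0.5 and 10 µM) to 413, 421 and 397 CPM, and the passages did not overlap. Ctnnb1 went from 1794, 1761 and 2308 CPM to 1373, 1425 and 1624 CPM, again without overlap. In a fit without treatment as a term, Tspan12 (adjusted p = 0.144) and Ctnnb1 (adjusted p = 0.0548) were not called.

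Between passages 14 and 18, Ctnnb1 went back up, to 2057, 2234 and 2512 CPM (0.62 ± 0.06, adjusted p = 4.89e-09). Tspan12 rose from 32.2, 31.3 and 38 CPM to 41.4, 50.4 and 53.6 CPM (0.52 ± 0.08, adjusted p = 4.21e-05), and Reck by 0.38 ± 0.13 (adjusted p = 0.0266), while Fzd4 fell by 0.24 ± 0.06 (adjusted p = 0.00516). With Apcdd1 this made 5 of 8, beside 33.1% of all genes. Fzd4 lost its call without WZB117 0.5 µM replicate 14 or DMSO replicate 18, and Reck without DMSO replicate 14, WZB117 10 µM replicate 14 or WZB117 0.5 µM replicate 18 (adjusted p from 0.0612 to 0.165). Neither was called without treatment as a term (Fzd4 adjusted p = 0.206, Reck adjusted p = 0.0823).

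Passage 18 against 12 left 3 of 8 called, beside 35.1% of all genes: Apcdd1 lower, and Adgra2 (0.41 ± 0.07, adjusted p = 2.97e-05) and Ctnnb1 (0.22 ± 0.06, adjusted p = 0.00496) higher. Ctnnb1 lost this call without WZB117 0.5 µM replicate 18 (adjusted p = 0.0549) and in the fit without treatment as a term (adjusted p = 0.234). Markers of cell identity moved with passage as well. All 12 endothelial markers were higher at passage 18 than at 12, and their sum lay between 5803 and 6067 CPM at passage 12 and between 7651 and 8074 CPM at passage 18. Pdgfra, known from fibroblasts and oligodendrocyte precursors, was at 76 to 99.4 CPM at passage 12, 30.5 to 34.6 CPM at passage 14 and 31.4 to 34.9 CPM at passage 18. Olig1 and Olig2 were at 0 in all cEND libraries. From passage 12 to 18, Cspg4 of the same list, the fibroblast marker Dcn and the pericyte marker Pdgfrb (log2 fold change -1.81 ± 0.26) were lower as well. Acta2, a smooth muscle gene, was higher (1.18 ± 0.29), and the fibroblast gene Col1a1 (0.17 ± 0.36) was not called. The summed fibroblast list went from 1.66 to 2.1 CPM at passage 12 to 0.646 to 1.21 CPM at passage 18, and the pericyte and smooth muscle list from 5.32 to 5.66 CPM to 3.9 to 4.11 CPM. The part of these changes in the Wnt genes was not tested.

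Of the wider pathway, 47.1% of 68 tested genes passed between passages 12 and 18, 12 higher and 20 lower. Over all genes 35.1% passed, 15.9% higher and 19.2% lower. Receptors were divided, with Fzd9 (1.10 ± 0.08), Fzd6 (0.68 ± 0.06) and Ptk7 (0.60 ± 0.07) higher and Fzd1 lower by -1.51 ± 0.16. General targets had 6 of 11 lower and 2 higher: Cd44 (-0.76 ± 0.06) and Sox4 (-0.58 ± 0.08) were lower, Prickle1 (0.48 ± 0.07) and Bambi (0.61 ± 0.10) higher. Brain endothelial Wnt-dependent genes had 3 of 8 lower and 2 higher. This list was not split into genes that Wnt raises or lowers, so its counts tell no direction of Wnt signalling. Of these, Foxf2 (-2.05 ± 0.18) and the efflux pump Abcb1a (-1.06 ± 0.09) fell while the tight junction gene Cldn5 (0.45 ± 0.06) and the fenestral protein gene Plvap (0.51 ± 0.06) rose.

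WZB117 was compared first by treatment alone. At 0.5 µM, edgeR and DESeq2 called 0 of the 8 tested genes, none had an unadjusted p under 0.05, and 0% of 15466 genes passed (55 genes under an unadjusted p of 0.05, and 0 by DESeq2). At 10 µM against DMSO, Slc2a1, which encodes the transporter that WZB117 blocks, rose from 84.7 ± 14.4 to 320 ± 50.8 CPM (SD, n = 3, log2 fold change 1.92 ± 0.19, adjusted p = 0.00309). Of the 8 Wnt genes, edgeR called 0, with 3 under an unadjusted p of 0.05 (11.2% of all genes) and 0 by DESeq2, where 1.27% of all genes passed. Against 0.5 µM edgeR again called 0 of 8, with 3 under an unadjusted p of 0.05 (11% of all genes) and 1 by DESeq2 (Lef1), beside 1.27% of all genes.

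Libraries of 1 passage deviated together, so each dose was also compared within passage, by a passage term in the model. Then 5 of the 8 genes passed at 10 µM against DMSO, 3 higher and 2 lower, beside 18.5% of all genes. The same 5 passed at 10 µM against 0.5 µM, in the same directions, beside 17.8% of all genes. These contrasts share the 10 µM libraries. Against 0.5 µM, Lrp6 lost its call whichever of the 9 libraries was left out (adjusted p from 0.0581 to 0.249) and by DESeq2 (adjusted p = 0.0537). Tspan12 lost its call without WZB117 0.5 µM replicate 12 (adjusted p = 0.162) or WZB117 10 µM replicate 12 (adjusted p = 0.116). Ctnnb1 lost its call without WZB117 0.5 µM replicate 12 (adjusted p = 0.0618). At 0.5 µM against DMSO the count stayed at 0 of 8. DESeq2 within passage called 4 of the 5 against DMSO and 3 against 0.5 µM, and gave no adjusted p for Lef1.

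Lef1 fell furthest. It had 0.458, 0.919 and 1.05 CPM in DMSO at passages 12, 14 and 18, 0.765, 0.998 and 1.19 CPM at 0.5 µM, and 0.126, 0.435 and 0.323 CPM at 10 µM. Every 10 µM library lay below every other library, and within passage the 10 µM level was 0.276, 0.473 and 0.306 times that of DMSO. The log2 fold change was -1.47 ± 0.42 (SE, adjusted p = 0.0134 within passage, 0.264 by treatment alone). It rests on 5 to 15 counts per 10 µM library, and Lef1 counts were fractional in all 9 cEND libraries before rounding. The call was lost without DMSO replicate 14 or 18 or WZB117 10 µM replicate 12 or 18 (adjusted p from 0.0518 to 0.101).

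Fzd4 had 73.8, 76.8 and 63 CPM in DMSO and 56.6, 61.8 and 52.9 CPM at 10 µM, in the order of passages. The 2 groups did not overlap, and the log2 fold change was -0.32 ± 0.06 (adjusted p = 0.000767 within passage, 0.274 by treatment alone). Ctnnb1 went the other way, from 1794, 1373 and 2057 CPM to 2308, 1624 and 2512 CPM. Its groups overlapped across passages but rose in each one, by 1.29, 1.18 and 1.22 times, with a log2 fold change of 0.30 ± 0.06 (adjusted p = 0.000643 within passage, 0.725 by treatment alone). Against DMSO, Fzd4 and Ctnnb1 were called within passage whichever of the 9 libraries was left out.

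Tspan12 rose in each passage, by 1.34, 1.18 and 1.29 times (0.35 ± 0.08, adjusted p = 0.00483 within passage, 0.612 by treatment alone). Lrp6 rose by 1.18, 1.15 and 1.12 times, from 83.1, 77 and 79.6 CPM to 97.9, 88.3 and 89.2 CPM (0.20 ± 0.06, adjusted p = 0.0209 within passage, 0.359 by treatment alone). Tspan12 lost its call without DMSO replicate 18 or WZB117 10 µM replicate 12 (adjusted p of 0.069 and 0.0731), and Lrp6 without any 1 of 4 libraries (DMSO replicates 12, 14 and 18 and WZB117 10 µM replicate 12; adjusted p from 0.0702 to 0.147).

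Adgra2 (-0.02 ± 0.07, interval -0.16 to 0.11), Reck (0.17 ± 0.13, interval -0.09 to 0.43) and Apcdd1 (-0.84 ± 0.67, interval -2.14 to 0.47) missed the threshold. Axin2, untested, had 5, 7 and 11 counts in DMSO and 14, 13 and 8 counts at 10 µM in the order of passages, and the groups overlapped. Of the 8 tested genes, 6 moved in the same direction in all 3 passages, as did 46.9% of all tested genes. Groups that did not overlap were found for 3 of the 8 (Lef1, Fzd4 and Lrp6) and for 15.6% of all genes.

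**Figure D5:**
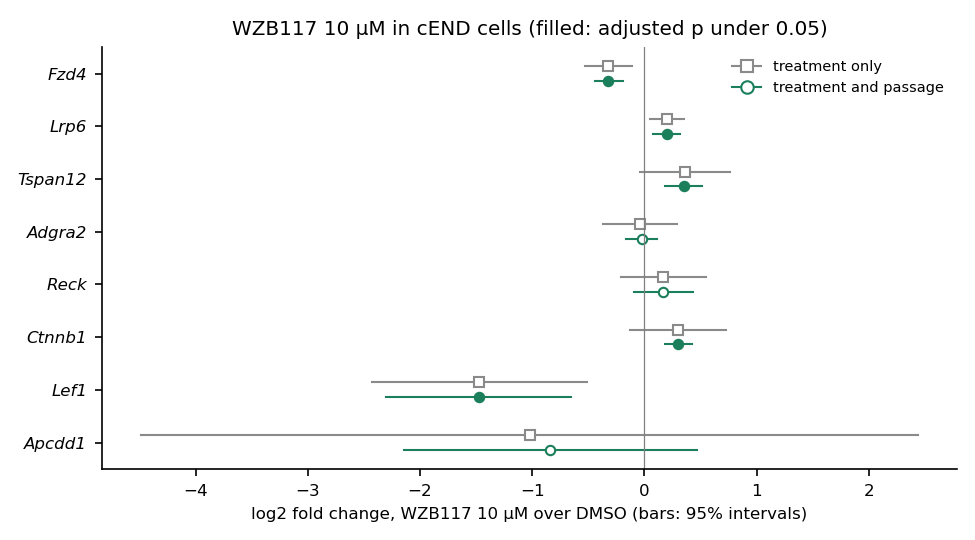
log2 fold change of WZB117 10 µM over DMSO in cEND cells for the 8 tested genes, with treatment alone (squares) and with passage as a further term (circles), 95% intervals as bars and filled symbols for an adjusted p under 0.05, n = 3 libraries per group. The fold changes hardly move between the fits while the bars shorten, and 5 circles are filled.

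Of 68 further pathway genes tested at 10 µM against DMSO, 2 passed by treatment alone, Slc2a1 and Fzd7 (0.50 ± 0.10, adjusted p = 0.0437), both higher. Within passage 10 of the 68 were higher and 4 lower, a share close to the 18.5% of all genes called in that fit. The receptors Fzd7 (0.50 ± 0.08), Fzd6 (0.31 ± 0.06) and Fzd9 (0.25 ± 0.08) were higher, in the direction opposite to Fzd4, as were the kinase gene Csnk1e (0.22 ± 0.06), the co-repressor gene Tle1 (0.25 ± 0.07), Kremen1 (0.22 ± 0.08), Sox4 (0.33 ± 0.08), Ppard (0.43 ± 0.11), Cldn5 (0.20 ± 0.07) and Slc2a1 (1.93 ± 0.19). The 4 that fell were the Wnt targets Ccnd1 (-0.47 ± 0.08) and Bambi (-0.51 ± 0.10) and the inhibitors Nkd2 (-0.44 ± 0.11) and Tmem88 (-0.33 ± 0.07). Slc2a1 is itself on the list of brain endothelial Wnt-dependent genes, of which 3 of 8 rose within passage. Of 12 endothelial markers, Flt1 (0.30 ± 0.06), Esam (0.23 ± 0.06) and Cldn5 were higher and Kdr (-0.34 ± 0.06) was lower within passage, and their part in the Wnt values was not tested.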

How the data were processed

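The deposited tables held the authors' estimated counts per gene, which were not whole for 17.3% of the hypothalamus values and 19.8% of the cEND values. The genome build is GRCm38, per the submitters' processing notes; the aligner, counter, annotation release and strand setting are not given in the sources used here. Symbols, coordinates and exon lengths came from GENCODE M21.

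Counts were rounded to whole numbers, filtered with filterByExpr, scaled by TMM and tested with edgeR 4.0.16 (quasi-likelihood, limma 3.58.1, R 4.3.3), with Benjamini-Hochberg adjustment over all tested genes. IP was compared with INPUT with diet as a term, diets within IP and within INPUT, doses by treatment alone, and passages with treatment as a term. The pipeline was tested on simulated data. DESeq2 1.42.0, other filters and scalings, blocks and left-out libraries were the alternatives.

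The labels name the passage, and libraries of the same passage deviated together (r from 0.51 to 0.73, 9 of 9 pairs above 0.1), so cEND libraries were paired by passage. No 2 libraries of a group agreed within sampling noise. Named genes were the 10 members, Slco1c1, Slc2a1 and up to 4 genes per list with the smallest p; genes named beyond these were singled out after their values were seen. The members and lists were chosen with earlier results of these data known. Intervals are 95%, from the SE of a log2 fold change or Poisson limits for pooled counts, and figures were drawn with matplotlib 3.10.9.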

Additional observations from a re-analysis of the deposited data

Results flagged for a closer look

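Within the 4 groups of hypothalamus libraries, 3 of 40 combinations of gene and group had 1 library far from the other 3, where chance flags about 1 in 20 groups. Tspan12 was at 17.1 CPM in HFD_INPUT replicate 2 and at 14.9 to 15.2 CPM in the other libraries of that group. Ctnnb1 was at 242 CPM in CD_INPUT replicate 1, below 272 to 275 CPM in the others. It was at 632 CPM in HFD_IP replicate 4, above 515 to 531 CPM in the others.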

How the results depend on the processing

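Of 1470 values of single Wnt genes under the alternatives, 1422 kept their direction and side of the threshold or were uncalled in both fits, 36 lost their call, 12 gained one and 0 called values changed sign; 73 uncalled values took another sign. No scaling moved the median of all genes by over 0.1. Genes called for HFD in IP were 14 in the reported fit, 200 by DESeq2, 398 without the filter on low counts, 52 with a replicate block, 121 with all 16 libraries in 1 fit, and 5 to 50 with 1 library left out. In INPUT they were 6, and then 52, 116, 43, 2 and 2 to 17, and 10 without both libraries numbered 2. For the difference between these diet effects they were 0, with 4 by DESeq2, 1 without the filter, 1 with the block and 0 to 1 with 1 library left out. The 0 Wnt genes called for diet stayed at 0 under each of these. For WZB117 10 µM against DMSO the count of genes was 197, 534 by DESeq2, 2864 with the replicate block (passage) and 38 to 195 with 1 library left out; the Wnt genes called were 0 and, with the block, 5. Against 0.5 µM the counts were 197, 524, 2759 and 33 to 152; the Wnt genes were 0, 1 by DESeq2 and 5 with the block. Within passage, leaving out 1 library gave 2 to 5 Wnt genes and 1731 to 2857 genes against DMSO, where DESeq2 called 4 Wnt genes, and 2 to 4 and 1660 to 2709 against 0.5 µM, where DESeq2 called 3 Wnt genes. Without treatment as a term, passage 14 against 12 had 2 Wnt genes and 1623 genes, 18 against 12 had 2 Wnt genes and 3269 genes, and 18 against 14 had 3 Wnt genes and 2924 genes. With 1 library left out these were 2086 to 3668 genes (14 against 12) and 3 to 5 Wnt genes (18 against 14). The replicate numbers of the mouse pools were not taken as pairs, because not every same-numbered pair had r over 0.1. Between INPUT and IP r was 0.02 to 0.19, with 6 of 8 over 0.1 and 7 of 8 best with their own number, a hint of shared pools. It was 0.01 to 0.05 between diets in IP and 0.05 to 0.14 in INPUT, and the block changed no call of the 10 genes there. Except where a value shows it, the cause of these shifts was not tested. Lef1, Axin2, Apcdd1 and Foxq1 in cEND and Foxq1 in INPUT rest on few reads, which limits their precision.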
